A study of Mus musculus with 15 samples.

Results

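Caloric restriction and dietary metformin were set side by side in mouse liver by 176 miRNAs, out of 696 mouse miRNAs on the array. The 176 were those that the scanner software called detected on all 5 arrays of restricted mice (CR) or on all 5 arrays of metformin-fed mice (Met). Of them, 147 were detected on all 10 of these arrays, 25 qualified through Met alone and 4 through CR alone. The mice were male B6C57/J, were 1 year old when the diets began, and stayed on them for life. CR mice ate the AIN-93G diet under a 40% restriction. Met mice had free access to the same diet with 0.1% w/w metformin, an antidiabetic drug. A standard diet group (SD, 5 mice) ate AIN-93G freely and entered the fit, which shared 1 estimate of spread over all 15 arrays. Each array held the liver RNA of 1 mouse. The labels give the start of the diets and not the age at which the livers were taken.

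miRNAs are short RNAs, most of them released from a hairpin by a Dicer cut, that lead Argonaute proteins to messenger RNAs. Pairing of the seed, bases 2 to 8 from the 5′ end, to the 3′ UTR of a message lowers its translation or stability, and miRNAs with the same seed form a family with overlapping targets. Many family members come from several loci, and neighboring hairpins often share 1 primary transcript. In liver, hepatocytes are the main source of miR-122, and miR-192, miR-194 and miR-148a are also abundant there. miR-34a, a target of p53, lowers the deacetylase SIRT1 and is linked to aging and to nutrient metabolism.

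Mature sequences from RefSeq (GRCm38.p6) were found for 132 of the 176 miRNAs. Those below carry the comparisons that follow, written 5′ to 3′ with the seed in capitals. The first set holds let-7 and miR-29 members, among them the lowest and the highest difference of each family. Members of the miR-15, miR-148 and miR-26 families follow.
let-7f-5p: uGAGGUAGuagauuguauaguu
let-7a-5p: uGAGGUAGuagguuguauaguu
let-7b-5p: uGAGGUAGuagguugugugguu
miR-29c-3p: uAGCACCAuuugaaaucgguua
miR-29b-3p: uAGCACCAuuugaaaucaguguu
miR-29a-3p: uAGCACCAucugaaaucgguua
miR-15a-5p: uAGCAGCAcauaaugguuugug
miR-15b-5p: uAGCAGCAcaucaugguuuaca
miR-148a-3p: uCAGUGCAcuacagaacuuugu
miR-148b-3p: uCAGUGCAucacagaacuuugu
miR-26b-5p: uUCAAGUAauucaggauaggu
miR-26a-5p: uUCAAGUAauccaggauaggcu
The next set holds other miRNAs on which the comparisons turn, and the last 2 are those with the most G and C.
miR-21a-5p: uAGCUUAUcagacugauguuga
miR-192-5p: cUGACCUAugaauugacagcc
miR-194-5p: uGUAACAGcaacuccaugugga
miR-101b-3p: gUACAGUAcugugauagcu
miR-101a-3p: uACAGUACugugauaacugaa
miR-34a-5p: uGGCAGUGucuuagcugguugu
miR-30e-5p: uGUAAACAuccuugacuggaag
miR-451a: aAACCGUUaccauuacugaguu
miR-1906: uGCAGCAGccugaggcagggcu
miR-2861: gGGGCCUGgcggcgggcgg
miR-2137: gCCGGCGGgagccccagggag
let-7a-5p and let-7f-5p differ at 1 of 22 positions, as do miR-29a-3p and miR-29c-3p, while miR-148a-3p and miR-148b-3p differ at 2. Probes for such close members may bind each other's miRNA, and this was not tested.

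Within the CR group, the arrays CR 2 and CR 3 stood apart from the rest. Over the 176 miRNAs, CR 2 and CR 3 correlated with each other at r = 0.995 and with single Met arrays at 0.905 to 0.946. The other CR arrays correlated with single Met arrays at 0.975 to 0.996, and the Met arrays among themselves at 0.975 to 0.997. The software detected 167 miRNAs on CR 2, 151 on CR 3, 184 to 198 on the other CR arrays and 182 to 191 on the Met arrays. The spread of the natural log signal over all spots, by which each z-score is divided, was 0.674 on CR 2 and 0.646 on CR 3 and lay between 0.699 and 0.767 on the other 8 arrays. The labels separate CR 2 and CR 3 in no way from the rest of their group, so the main values keep them, and values without them are given beside the counts and the differences described by array. The arrays also lay on 2 slides, with SD and Met 1 to 3 on slide 1 and all CR arrays with Met 4 and Met 5 on slide 2. Control spots at the array corners read 130.5 to 145.2 on the CR arrays and 183.2 to 269.5 on the Met arrays, and 242.8 and 250.2 on the Met arrays of slide 2. The part of slide, corner brightness and RNA quality in the differences below was not tested beyond the values given.

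The values are z-scores, in which the natural log of a spot's median signal has the mean over its array subtracted and is divided by the standard deviation over the array. A difference of 1 is thus 1 standard deviation of an array's log signals, and a shift common to a whole array is removed. Spots were averaged per probe and probes per miRNA. The criteria asked for a limma p of 0.05 or less, a p of 0.3 or less after Benjamini-Hochberg adjustment, and a Z ratio of at least 1.5 in size. The Z ratio sets the difference of the group means against the spread of such differences (standard deviation) over all 696 miRNAs. This spread was taken anew in each fit and scaling, so the difference needed to pass moved with it.

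On the z-score scale, more of the detected miRNAs lay lower in CR livers than in Met livers than lay higher, which did not hold under every scaling. The criteria were met by 37 of the 176 miRNAs (21.0%), of which 29 (16.5%) were lower in CR and 8 (4.55%) higher. The lower ones included the hepatocyte miRNAs miR-192-5p, miR-194-5p and miR-148a-3p, members of the miR-29, miR-30, miR-15 and let-7 families, and miR-21a-5p, which is abundant in many tissues and rises in injury. Of the 8 higher ones, 6 carried names from miR-2133 to miR-2146 with a version suffix of the array annotation. Names with such a suffix were 17 of the 176, and no RefSeq sequence was matched to them. Whether these entries are still held to be miRNAs was not checked, and they are counted here as the array names them. Of these 17, 10 met the criteria, 4 lower and 6 higher. Over all 176 the median difference was -0.03, with 106 below 0 and 70 above 0. At an adjusted p of 0.05 or less without a Z ratio limit, 61 passed, 24 higher and 37 lower. That count moved down and up with single arrays left out, by limma from 9 without CR 2 to 88 without CR 5. It was 11 without CR 3, 51 without CR 4 and 69 without CR 1. It was 12 without Met 5, 23 without Met 3, 37 without Met 2, 42 without Met 4 and 50 without Met 1. It was 8 with the slide as a block and 7 when the SD arrays were kept out of the fit.

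The split into lower and higher miRNAs moved with the scaling. When the 75th percentile of detected probes was used to scale the arrays, the median of the 176 lay 0.19 above 0 on the log2 scale and 76 (43.2%) met the criteria, 45 (25.6%) higher and 31 (17.6%) lower in CR. Quantile normalization gave 21 higher and 26 lower, z-scores over detected miRNAs 18 and 22, plain centering of each array 1 and 31, and the 75th percentile of all probes 0 and 10. The median was also above 0 with quantile normalization (0.02), z-scores over detected miRNAs (0.04) and the software's total gene signal (0.25). It was below 0 with plain centering (-0.03), the 75th percentile of all probes (-0.01) and the normexp background correction (-0.04). Of the 37 miRNAs, 35 kept their sign under all 7 other scalings, background corrections and signal summaries tried. The 2 that did not were miR-130a-3p and miR-30a-5p.

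Leaving out CR 2 and CR 3 together, an alternative chosen after seeing the data, 18 miRNAs (10.2%) met the criteria, 15 (8.52%) lower and 3 (1.70%) higher in CR. All 18 were among the 37, and all 37 kept their sign. The spread of differences behind the Z ratio fell from 0.155 with all arrays to 0.0944, so a smaller difference was enough to pass here. The size of the 37 differences was then 17.0% (miR-126-3p) to 92.8% (miR-1939_v16.0) of that with all arrays, with a median of 45.8%. By limma, 0 then reached an adjusted p of 0.05, and 34 of the 176 an unadjusted p of 0.05. With all arrays, on CR 2 and CR 3 all 29 lower miRNAs lay below every Met array. On CR 4 this held for 27 of the 29, and on CR 1 and CR 5 together for 14. For 28 of the 29 lower and all 8 higher miRNAs, CR 2 and CR 3 were the most extreme pair of CR arrays, the exception being miR-1939_v16.0. The CR group was accordingly wider, with a median standard deviation over the 176 of 0.0863 against 0.0519 in Met and 0.0594 in CR without these 2 arrays. For 35 of the 37, the SD mean was nearer to the Met mean than to the CR mean, a count without a test, since all SD arrays lay on slide 1. The 37 were picked by the difference between CR and Met, and no share over all 176 was taken to set beside this count.

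**Figure D1:**
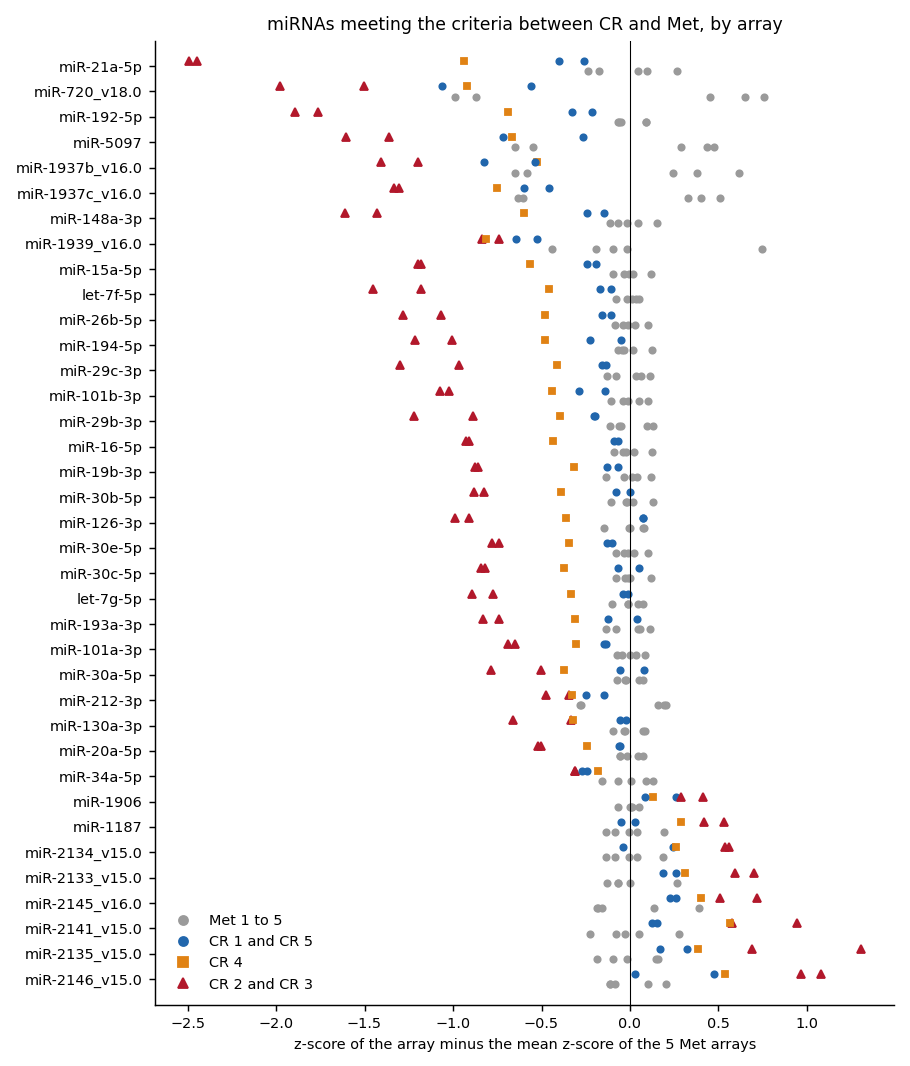
Each row is 1 of the 37 miRNAs that met the criteria, and each point is 1 array, placed by its z-score minus the mean of the 5 Met arrays (gray circles). Triangles mark CR 2 and CR 3, squares CR 4 and blue circles CR 1 and CR 5. The triangles are the most extreme CR points for 28 of the 29 lower and all 8 higher miRNAs, the squares mostly lie between them and the Met points, and the blue circles lie close to or among the Met points.

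The order of the CR arrays recurred from miRNA to miRNA. The z-scores of miR-21a-5p were 3.07, 0.838, 0.883, 2.40 and 2.93 on CR 1 to CR 5 and 3.16, 3.10, 3.60, 3.38 and 3.43 on Met 1 to Met 5. CR 2 and CR 3 were far below the rest, CR 4 was next, and CR 1 and CR 5 were just under the lowest Met array, so the groups did not overlap. The z-scores of miR-192-5p were 2.91, 1.23, 1.36, 2.43 and 2.79 on CR 1 to CR 5 and 3.07, 3.06, 3.21, 3.05 and 3.21 on Met 1 to Met 5. The order was the same, again without overlap. miR-192-5p, which is enriched in liver and gut, differed by -0.977 (standard error 0.273), and without CR 2 and CR 3 by -0.409. On the scale set by the 75th percentile of detected probes, miR-21a-5p was 2.50-fold and miR-192-5p 1.82-fold lower in CR.

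A group of 15 miRNAs met the criteria in each of 3 further fits: without CR 2 and CR 3, with the slide as a block, and with each of the 10 arrays left out in turn. They also kept their sign under the 7 other scalings, corrections and summaries. The Z ratio limit did not ask for the same difference in each fit, and asked for the smallest without CR 2 and CR 3. Of the 15, 13 were lower in CR, namely miR-21a-5p, miR-192-5p, miR-194-5p, miR-148a-3p, miR-1939_v16.0, miR-15a-5p, miR-26b-5p, miR-29b-3p, miR-29c-3p, miR-101a-3p, miR-101b-3p, miR-19b-3p and miR-30e-5p. The 2 higher ones were miR-2133_v15.0 and miR-2135_v15.0. miR-101a-3p and miR-19b-3p had qualified through Met alone, the group in which they were higher, so their entry favored a difference of this sign. With the slide as a block over the 37, 20 of the 29 lower and 7 of the 8 higher met the criteria. In that fit 34 of 176 did (19.3%), 25 (14.2%) lower and 9 (5.11%) higher. On slide 2 alone, where 5 CR arrays faced 2 Met arrays, 4 of the 29 and 4 of the 8 did, among 12 of 176 (6.82%), 7 (3.98%) lower and 5 (2.84%) higher.

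The differences grew with the brightness of the miRNA. The 176 miRNAs were parted by their mean z-score over all 15 arrays into tiers of 59, 58 and 59. Probes differ in their binding, so a tier orders signals and not molecule numbers. In the upper tier 23 miRNAs were lower and 6 higher in CR by the criteria, with a median difference of -0.17. In the middle tier 6 were lower and 2 higher, with a median of -0.04. In the lower tier 0 of 59 met the criteria, with a median of 0.02 and a range from -0.19 to 0.10. Without CR 2 and CR 3 the upper tier held 11 lower and 2 higher, the middle tier 4 and 1, and the lower tier 0. A fixed limit on the Z ratio asks for the same difference at every level, and signals near background vary little on this scale. With the 75th percentile of detected probes as the scale, from background-subtracted signals, the lower tier held 7 lower and 17 higher miRNAs, the middle tier 12 and 14, and the upper tier 12 and 14.

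**Figure D2:**
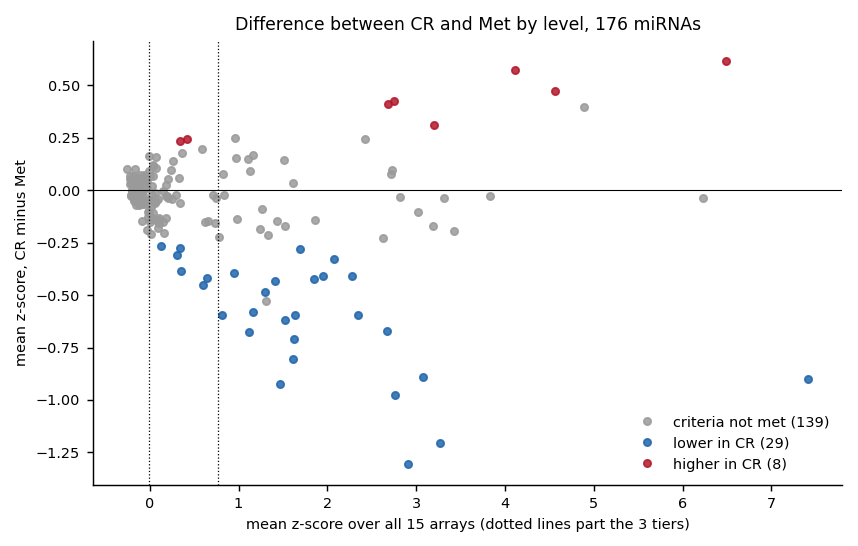
Each point is 1 of the 176 miRNAs, with the mean z-score over 15 arrays on the x axis and the difference of mean z-scores, CR minus Met, on the y axis. Dotted lines part the 3 tiers, and the points that met the criteria (29 blue, 8 red) lie in the middle and upper tiers.

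Among the 10 brightest miRNAs, those that met the criteria were not the hepatocyte marker. miR-122-5p, the most abundant miRNA of hepatocytes, had z-scores of 6.34, 6.38, 6.12, 6.29 and 6.33 on CR 1 to CR 5 and 6.27, 6.36, 6.40, 6.31 and 6.28 on Met 1 to Met 5. The groups overlapped, and the difference was -0.0343 with a standard error of 0.113. Quantile normalization alone of the 7 other scalings, corrections and summaries put miR-122-5p past the criteria, at -0.220. miR-22-3p differed by -0.0379 and miR-494-3p by -0.194, neither meeting the criteria. miR-2146_v15.0, miR-2135_v15.0 and miR-2141_v15.0 were higher in CR, miR-720_v18.0 and miR-1937b_v16.0 were lower, and miR-2138_v15.0 (0.399) and miR-2140_v15.0 (-0.0295) did not meet the criteria.

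The let-7 family, which holds back growth and insulin signaling genes, had 9 members with the seed shared by miR-98, and they did not move as 1 group. Only let-7f-5p and let-7g-5p met the criteria, both lower in CR, 2 of 9 against 16.5% over all 176. The z-scores of let-7f-5p were 2.76, 1.47, 1.75, 2.47 and 2.82 on CR 1 to CR 5 and 2.98, 2.85, 2.94, 2.91 and 2.96 on Met 1 to Met 5. CR 2 and CR 3 were far below the other arrays and every CR array was below every Met array. let-7f-5p differed by -0.673 and let-7g-5p by -0.410 (adjusted p = 0.0310 and 0.0625, limma). The other 7 members ranged from -0.171 for let-7a-5p to 0.0987 for let-7b-5p, with let-7i-5p at -0.156, let-7d-5p at -0.144, miR-98-5p at -0.0451, let-7c-5p at -0.0326 and let-7e-5p at -0.0290. Without CR 2 and CR 3, 0 of the 9 met the criteria and the family's median difference was -0.01 in place of -0.14. The median turned to 0.14 on the log2 scale under the 75th percentile of detected probes, against 0.19 over all 176 miRNAs, and to 0.24 with the total gene signal.

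With all arrays, the miR-30 family had the largest share of lower members among the 7 families with at least 3 members. Of its 5 members, 4 were lower in CR by the criteria, against 16.5% over all 176, and RefSeq sequences were matched for 3. The upper tier held 3 of the 5 members, and there 23 of 59 miRNAs were lower. miR-30b-5p and miR-30d-5p were placed in the family by name. The differences were -0.433 for miR-30b-5p, -0.418 for miR-30e-5p, -0.411 for miR-30c-5p and -0.326 for miR-30a-5p, against -0.0211 for miR-30d-5p, which did not meet the criteria. The z-scores of miR-30e-5p were 0.680, 0.0407, -0.000873, 0.435 and 0.652 on CR 1 to CR 5 and 0.769, 0.744, 0.804, 0.699 and 0.880 on Met 1 to Met 5. Every CR array was below every Met array, CR 1 and CR 5 narrowly. Without CR 2 and CR 3, miR-30e-5p alone of the 5 met the criteria, with a difference of -0.190, as it did under the 75th percentile of detected probes. miR-30a-5p changed sign with the software's total gene signal.

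In the miR-29 family, which represses collagen genes, miR-29b-3p and miR-29c-3p were lower in CR and miR-29a-3p did not meet the criteria. The z-scores of miR-29c-3p were 1.72, 0.886, 0.553, 1.44 and 1.69 on CR 1 to CR 5 and 1.92, 1.72, 1.89, 1.77 and 1.96 on Met 1 to Met 5. The z-scores of miR-29a-3p were 3.19, 2.99, 2.67, 2.98 and 3.15 on CR 1 to CR 5 and 3.11, 3.02, 3.13, 3.05 and 3.19 on Met 1 to Met 5. For miR-29c-3p every CR array was below every Met array, while for miR-29a-3p, which differs from it at 1 position, CR 5 lay among the Met arrays, CR 1 was just above the highest of them and CR 3 was the lowest. The differences were -0.595 for miR-29c-3p, -0.581 for miR-29b-3p and -0.102 for miR-29a-3p, and without CR 2 and CR 3 they were -0.237, -0.266 and 0.00938. miR-29b-3p and miR-29c-3p met the criteria both ways. The difference between the members was not tested, as it was chosen after its values were seen.

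The miR-15 family, which restrains the cell cycle and BCL2, had 4 members, and miR-15a-5p and miR-16-5p were lower. The z-scores of miR-15a-5p were 1.13, 0.174, 0.191, 0.810 and 1.18 on CR 1 to CR 5 and 1.34, 1.28, 1.37, 1.39 and 1.49 on Met 1 to Met 5. All CR arrays were below all Met arrays, and miR-15a-5p met the criteria on slide 2 alone as well. Its difference was -0.676 (standard error 0.176, limma adjusted p = 0.0208) and -0.332 without CR 2 and CR 3. miR-16-5p differed by -0.487 and no longer met the criteria without these 2 arrays. miR-195a-5p (-0.137) and miR-15b-5p (-0.0387) did not meet them with all arrays.

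In the miR-148 family 1 of 3 members met the criteria. The z-scores of miR-148a-3p were 1.73, 0.455, 0.272, 1.28 and 1.64 on CR 1 to CR 5 and 1.81, 1.87, 1.93, 1.77 and 2.04 on Met 1 to Met 5. CR 2 and CR 3 were lowest, and CR 1 and CR 5 fell just below the lowest Met array. miR-148a-3p, a liver miRNA that targets the LDL receptor, differed by -0.806 (limma adjusted p = 0.0259) and by -0.330 without CR 2 and CR 3, where it still met the criteria. Under the 75th percentile of detected probes it was 1.93-fold lower and miR-152-3p 2.27-fold lower, and both met the criteria. In z-scores miR-152-3p differed by -0.208, also without overlap of the groups, with a Z ratio of -1.34, under the limit. It was detected on 3 of the 5 CR arrays and had qualified through Met alone, so its entry favored a difference of this sign. miR-148b-3p lay near background on all 10 arrays and differed by -0.0142.

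The 2 remaining families with 3 or more members held 1 miRNA that met the criteria. Of the miR-17 type seed, which promotes proliferation, miR-20a-5p alone was lower (-0.277), with miR-106b-5p at -0.180, miR-20b-5p at -0.128 and miR-93-5p at -0.0239. With CR 2 and CR 3 left out, 0 of these 4 met the criteria. Under the 75th percentile of detected probes 3 of the 4 were lower, and the median of the 4 was -0.60 on the log2 scale against 0.19 over all 176. Of these, miR-106b-5p and miR-20b-5p had qualified through Met alone, the group in which they were higher, so their entry favored this sign. On that scale 12 of the 25 miRNAs that entered through Met alone were lower in CR and 0 higher. Of the miR-99 and miR-100 family 0 of 3 met the criteria, with miR-99a-5p at -0.148, miR-100-5p at -0.0611 and miR-99b-5p at 0.0357. Another 8 families had 2 members, and only 2 of them held a miRNA that met the criteria. They were the pair miR-26a-5p (-0.226) and miR-26b-5p (-0.619), of which miR-26b-5p met them, and the pair of miR-130a-3p (-0.279) and miR-721. The median differences of the miR-30, miR-15, miR-29, miR-148 and miR-20 families were below 0 under all 7 alternatives, whereas those of the let-7 and the miR-99 and miR-100 families changed sign with the scaling.

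**Figure D3:**
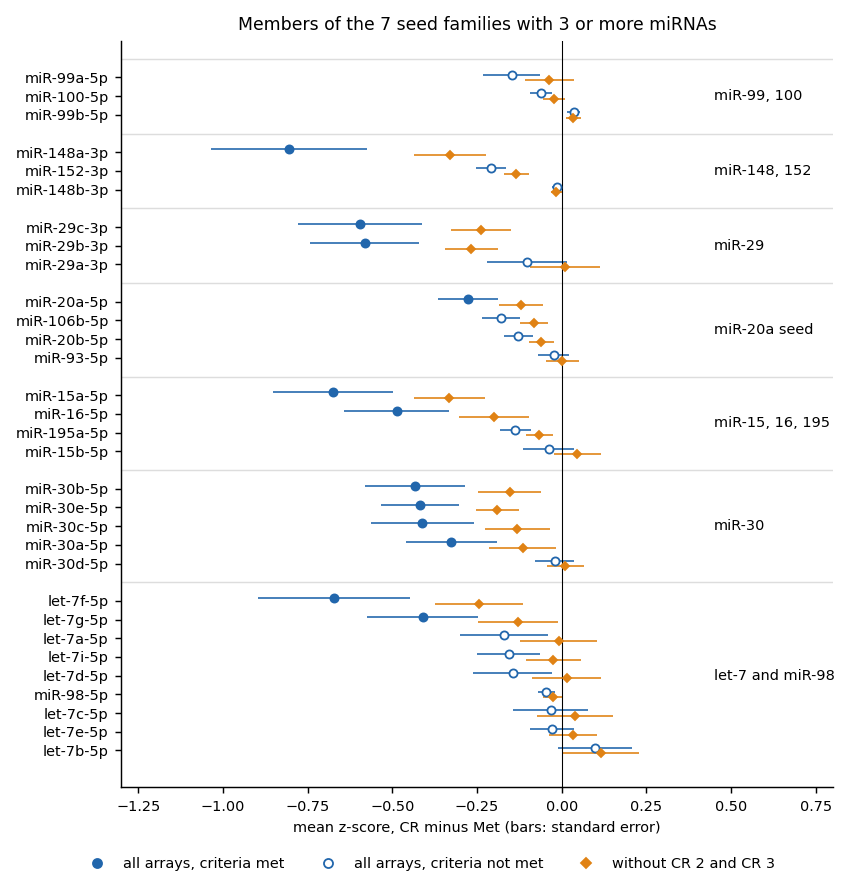
Points give the difference of mean z-scores, CR minus Met, with standard error bars, for each member of the 7 families with 3 or more miRNAs, from all arrays (circles, filled where the criteria were met) and without CR 2 and CR 3 (diamonds). Families such as let-7 and miR-29 hold both filled and open circles, and the diamonds lie nearer to 0 than the circles for the lowest members.

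Loci within 10 kb on the same strand were taken as a cluster. There were 28 such loci or clusters with at least 2 members, and 5 held at least 2 miRNAs that met the criteria, all lower in CR (16.5% over all 176). Mir194-2 with Mir192 and Mir29b-2 with Mir29c still held 2 without CR 2 and CR 3, and the other 3 held 1 each. Mir194-2 and Mir192 lie at chr19:6264643-6264932 on the plus strand (GRCm38.p6), and miR-192-5p and miR-194-5p differed by -0.977 and -0.596. Mir29b-2 and Mir29c lie at chr1:195037040-195037634 on the plus strand, and both miRNAs were lower. The second source of miR-29b-3p, beside Mir29a on chromosome 6, paired it with miR-29a-3p, which did not meet the criteria. Since the mature miR-29b-3p from both loci is the same, the array cannot tell apart the loci. The same holds for miR-194-5p, miR-16-5p, miR-30c-5p and miR-19b-3p.

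Mir15a and Mir16-1 lie close together on the minus strand of chromosome 14, and both miRNAs were lower, while miR-15b-5p, beside Mir16-2 on chromosome 3, differed by -0.0387. Mir30c-1 and Mir30e on chromosome 4 gave miR-30c-5p and miR-30e-5p, both lower, and the opposite arm miR-30e-3p, which differed by -0.0217 near background. The cluster from Mir17 to Mir92-1 at chr14:115043671-115044506 was split. miR-19b-3p (-0.450) and miR-20a-5p (-0.277) were lower in CR, whereas miR-17-3p (0.0397) and miR-92a-3p (0.0767) lay above 0 and did not meet the criteria.

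The differences were also set against base composition. Across the 132 miRNAs with a sequence, the share of G and C correlated with the difference between CR and Met at Pearson r = 0.470 and Spearman rho = 0.572, a description across miRNAs that share arrays and are not independent replicates. Among the 44 miRNAs with the lowest share, 27.3 to 42.1%, 14 were lower and 1 was higher in CR by the criteria, and the median difference was -0.15. Among the 44 in the middle 7 were lower, with a median of -0.06. Among the 44 with the highest share, 54.5 to 94.7%, 1 was lower and 1 higher, with a median of 0.05 and 35 of 44 above 0. Leaving out CR 2 and CR 3, the counts were 10 lower in the first, 3 lower in the second and 1 higher in the third, with medians of -0.06, -0.03 and 0.03.

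The relation was also seen within tiers and without CR 2 and CR 3. Pearson r was 0.574, 0.533 and 0.471 within the lower, middle and upper tiers, 0.421 without CR 2 and CR 3, and 0.446 on slide 2. Under the other scalings and summaries it lay between 0.441 and 0.563. Some members went against it. miR-1187, a repeat of U and G with 34.8% G and C, was higher in CR, and miR-15a-5p and miR-15b-5p have the same share, 40.9%, and differed by -0.676 and -0.0387. In the let-7 family the member with the lowest share among those in the upper tier, let-7f-5p (31.8%), was the lowest in CR and let-7b-5p (45.5%) the highest, but miR-98-5p, of the same share as let-7f-5p and near background, differed by -0.0451. miR-2861 and miR-2137, named for their composition after their values were seen, lay at 0.156 and 0.196, and neither met the criteria.

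**Figure D4:**
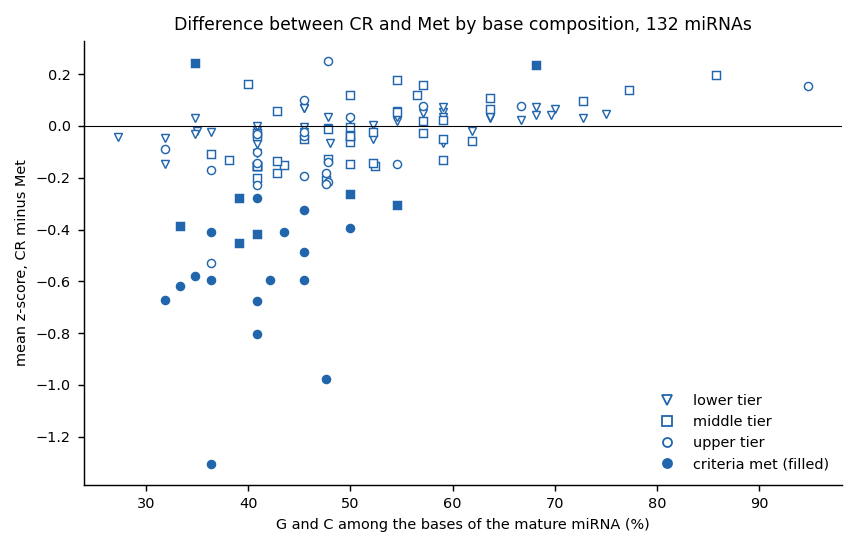
Each point is 1 of 132 miRNAs, with the percent of G and C in the mature sequence on the x axis and the difference of mean z-scores, CR minus Met, on the y axis. Marker shapes give the tier and filled markers met the criteria. Filled markers below 0 number 14 among the 44 miRNAs with the lowest share and 1 among the 44 with the highest.

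By array, the relation differed within the CR group. For each array the deviation of a miRNA from its mean over the 10 arrays was set against its share of G and C. The correlation was 0.444 on CR 2, 0.460 on CR 3 and 0.305 on CR 4, but -0.11 on CR 1 and -0.32 on CR 5, and it lay between -0.50 and -0.23 on the Met arrays. The median deviation of the 44 miRNAs with the lowest share was -0.18 on CR 2, -0.23 on CR 3 and -0.06 on CR 4, and it was above 0 on all 7 other arrays. CR 1 and CR 5 thus lay with the Met arrays in sign. This is partly built in, since the 10 deviations of each miRNA sum to 0. What sets CR 2, CR 3 and CR 4 apart was not tested, and no RNA quality value of single mice was analysed here.

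**Figure D5:**
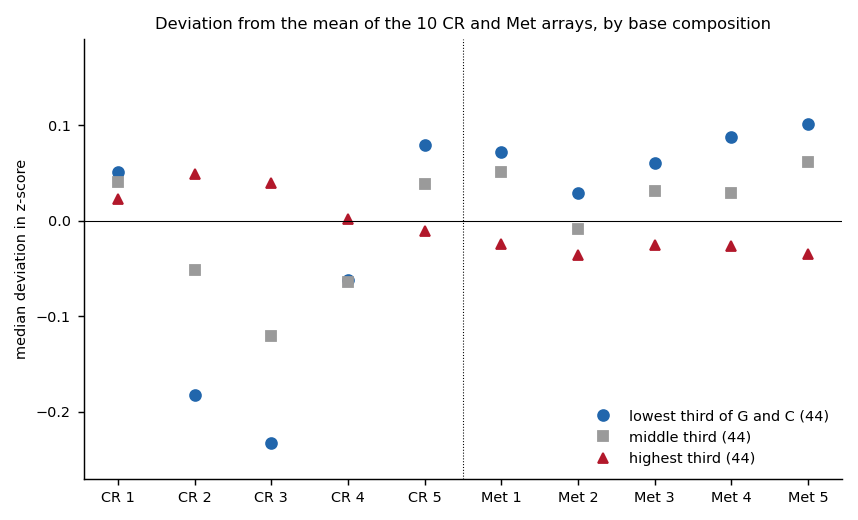
For each CR and Met array (x axis), points give the median deviation in z-score from the mean of the 10 arrays (y axis) over the 44 miRNAs with the lowest, middle and highest share of G and C. Circles fall below 0 on CR 2, CR 3 and CR 4 and lie above the triangles on all other arrays.

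Markers of cell types were read in the same way, and in bulk liver fewer cells of a type and less RNA per cell cannot be told apart. All 5 hepatocyte miRNAs qualified, and 3 were lower in CR (16.5% over all 176), with and without CR 2 and CR 3. Of the 5, 4 were in the upper tier, where 23 of 59 miRNAs were lower with all arrays. miR-122-5p (-0.0343) and miR-802-5p (-0.146), detected on 3 of the 5 CR arrays, did not meet the criteria. The summed signal of the hepatocyte list, before scaling, was 7967 to 19562 in CR and 18116 to 21677 in Met. Of the 4 leukocyte miRNAs that qualified, 0 met the criteria, with miR-142-3p at -0.189, miR-223-3p at -0.154, miR-146a-5p at -0.153 and miR-155-5p at 0.0326. Of the endothelial pair, miR-126-3p was lower (-0.423), but only with CR 2 and CR 3, and miR-126-5p (-0.128) did not meet the criteria. The 5 mesenchymal miRNAs held 0, from -0.202 for miR-199a-3p to 0.0910 for miR-145a-5p, with miR-143-3p at -0.0816, miR-199a-5p at -0.0516 and miR-214-3p at 0.0357. None of the 5 biliary or 3 muscle miRNAs looked up was detected on all arrays of either group.

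The summed signals of the other lists, before scaling, overlapped between the groups, as did those of the hepatocyte list. They ran from 716.4 to 809.8 in CR and 781.6 to 938.2 in Met for leukocytes, and from 390.6 to 817.4 and 720.9 to 869.4 for endothelium. They ran from 628.6 to 788.6 and 708.5 to 758.2 for mesenchymal cells, and from 578.3 to 595.8 and 578.9 to 611.9 for bile duct epithelium. The erythrocyte list ran from 260.4 to 777.6 in CR against 455.1 to 675.5 in Met, and the muscle list from 340.3 to 802.0 against 340.4 to 358.0. Both of these and the hepatocyte, endothelial and mesenchymal lists spanned a wider range in CR than in Met. The lowest sum of each of the 7 lists was in CR, for bile duct epithelium and muscle by less than 1 unit. The part of these cell types in the differences between CR and Met was not tested.

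The erythrocyte miRNA miR-451a varied widely within CR. The z-scores of miR-451a were 1.28, 0.0197, 0.128, 1.14 and 2.04 on CR 1 to CR 5 and 1.80, 1.10, 1.61, 1.40 and 1.34 on Met 1 to Met 5. CR 2 and CR 3 were near background, CR 5 was the highest of the 10 arrays and the groups overlapped. The difference of -0.530 did not meet the criteria (limma adjusted p = 0.180), and without CR 2 and CR 3 it was 0.0351.

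Of 18 miRNAs linked to nutrients and metabolism, 17 qualified, 6 were lower in CR (16.5% over all 176) and 0 were higher. Their median difference was -0.22, beside -0.03 for the whole 176. Of the 17, 13 were in the upper tier, where 23 of 59 miRNAs were lower and the median was -0.17. When CR 2 and CR 3 were left out, 4 of the 17 were lower and the median was -0.10. Under the 75th percentile of detected probes the median of the 17 was 0.00 and 4 were lower and 1 higher. The 6 were miR-21a-5p, miR-29b-3p, miR-29c-3p, miR-30c-5p, miR-130a-3p and miR-34a-5p. The 11 others included miR-103-3p (-0.137) and miR-107-3p (-0.215), which act on insulin sensitivity, miR-27a-3p (-0.153) and miR-27b-3p (-0.225), which act on lipid metabolism, miR-378a-3p (0.0902) and miR-125b-5p (0.0347). Among the miRNAs that passed both limits on p, miR-27b-3p and miR-107-3p were the first 2 outside the Z ratio limit, at -1.45 and -1.39, and miR-1906 and miR-1187 the first 2 inside it, at 1.51 and 1.57. miR-33-5p was detected on 0 of the 10 arrays.

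For miR-34a-5p the CR arrays lay close together, near background, where signals vary little on this scale. The z-scores of miR-34a-5p were -0.00988, -0.0779, -0.0737, 0.0552 and -0.0376 on CR 1 to CR 5 and 0.327, 0.0751, 0.167, 0.244 and 0.365 on Met 1 to Met 5. All CR arrays were below all Met arrays, and CR 2 and CR 3 lay near CR 5. The means were -0.0288 ± 0.0546 in CR and 0.236 ± 0.118 in Met (standard deviation, n = 5). The difference without CR 2 and CR 3 was -0.233, and the miRNA met the criteria there, with the slide as a block and on slide 2 alone. Among the scalings, it met them with the 75th percentile of detected probes, quantile normalization and plain centering. Z-scores over detected miRNAs, the 75th percentile of all probes and the total gene signal left miR-34a-5p outside the criteria. Its limma adjusted p there was 0.0281, 0.0885 and 0.0151, in that order, within the limit on adjusted p. It met them in 8 of the 10 fits that left out 1 array.

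The miR-101 pair, which targets EZH2, was lower in CR for both members. The z-scores of miR-101b-3p were 0.854, -0.0294, -0.0756, 0.554 and 0.706 on CR 1 to CR 5 and 0.955, 0.983, 1.05, 0.890 and 1.10 on Met 1 to Met 5. The groups did not overlap, with CR 2 and CR 3 lowest. The difference was -0.594 for miR-101b-3p and -0.385 for miR-101a-3p, which was detected on 3 of 5 CR arrays and on all Met arrays. With CR 2 and CR 3 dropped, the differences were -0.291 and -0.194, and both met the criteria. In RefSeq miR-101b-3p begins 1 base before miR-101a-3p, so the seeds as written are shifted. They were named after their values were seen, as were miR-26b-5p, miR-193a-3p (-0.393) and miR-212-3p (-0.307).

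Of the miRNAs higher in CR, only miR-1906 and miR-1187 had names without a suffix. The z-scores of miR-1906 were 0.505, 0.660, 0.533, 0.374 and 0.329 on CR 1 to CR 5 and 0.258, 0.245, 0.178, 0.251 and 0.297 on Met 1 to Met 5. The groups did not overlap, although CR 5 lay close to Met 5. miR-1906 differed by 0.234 and met the criteria without CR 2 and CR 3 but not with the slide as a block. miR-1187 differed by 0.244 and the groups overlapped. The z-scores of miR-2135_v15.0 were 4.21, 4.58, 5.20, 4.28 and 4.06 on CR 1 to CR 5 and 4.04, 3.80, 4.05, 3.87 and 3.70 on Met 1 to Met 5. CR 2 and CR 3 were highest here, the mirror of the lower miRNAs, and CR 5 lay just above Met 3. Of the 10 miRNAs named from miR-2132 to miR-2146, 6 were higher (4.55% over all 176) and 0 lower, with a median difference of 0.40, and without CR 2 and CR 3 these were 2 and 0, with a median of 0.21. Beside miR-2135_v15.0 these were miR-2146_v15.0 (0.617), miR-2141_v15.0 (0.473), miR-2145_v16.0 (0.424), miR-2133_v15.0 (0.411) and miR-2134_v15.0 (0.312).

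Another set of entries, all but miR-5097 with a suffix, was lower in CR and spread widely within Met. The z-scores of miR-1937c_v16.0 were 2.65, 1.95, 1.92, 2.50 and 2.80 on CR 1 to CR 5 and 2.65, 3.76, 3.65, 2.62 and 3.58 on Met 1 to Met 5. Met 1 and Met 4 lay among the CR arrays and the groups overlapped. The same overlap was seen for miR-720_v18.0, miR-1937b_v16.0 and miR-5097, with differences of -1.20, -0.898 and -0.924, and with the slide as a block the criteria were met by 0 of these 4. miR-1939_v16.0 differed by -0.711 without overlap and met them on slide 2 alone, where Met 4 read 2.62 against 1.78 on Met 5.

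Detection itself differed for a few miRNAs near background. miR-340-5p and miR-466g were detected on all 5 Met arrays and 1 CR array, and miR-374c-5p and miR-7a-5p on all Met arrays and 2 CR arrays. miR-452-5p and miR-714 were detected on all CR arrays and 2 Met arrays. Their differences ran from -0.0529 for miR-466g to 0.103 for miR-714, and none met the criteria. Since 25 miRNAs entered through Met alone and 4 through CR alone, those miRNAs were admitted by their reading in 1 group. Of the 25, 2 met the criteria, and of the 4, 0.

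Groups that did not overlap at all were found for 27 of the 176 miRNAs (15.3%), 16 lower (9.09%) and 11 higher (6.25%) in CR. Of the 16 lower, 14 met the criteria, and of the 11 higher, 2 did. Leaving out CR 2 and CR 3 can only add to such a count, since fewer arrays have to lie apart. The 9 other higher miRNAs, among them miR-452-5p and miR-714, had differences of at most 0.196.

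Because z-scores remove a shift common to an array, the unscaled signal was compared on its own. The median log2 signal over the 147 miRNAs detected on all 10 arrays was 7.38 ± 0.11 in CR and 7.48 ± 0.06 in Met (standard deviation, n = 5). The difference was -0.10, with p = 0.0952 by a two-sided exact permutation test. The smallest p that 5 arrays against 5 allow is 0.00794. By array the medians were 7.48, 7.35, 7.22, 7.34 and 7.48 on CR 1 to CR 5 and 7.44, 7.47, 7.42, 7.57 and 7.51 on Met 1 to Met 5, so CR 1 and CR 5 again lay among the Met arrays. Without CR 2 and CR 3 the difference was -0.05 (exact permutation test, p = 0.429), and on slide 2 alone it was -0.16, where the exact permutation test gave its lowest possible p for 5 arrays against 2, 0.0952. The log2 of the summed signal, which the brightest miRNAs dominate, differed by -0.32 between CR and Met (exact permutation test, p = 0.00794), with no CR array above any Met array.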

How the data were processed

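Liver miRNAs were profiled in 5 SD, 5 CR and 5 Met mice on 1-color Agilent mouse miRNA arrays (Cy3), read by the authors with Feature Extraction 11.5.1.1. The authors deposited the scanner intensity of each spot, on a linear scale and not normalized between arrays, with software flags for detection and outlier spots, and a table of z-scores. These deposited scores, on natural log median signals of the spots with no background subtracted, equaled the recomputed ones to within 0.0005. The number of arrays limits precision.

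From the intensities, z-scores were recomputed over all spots of an array. Outlier spots were dropped, and spots of a probe, then probes of a miRNA, were averaged. The fit was limma 3.58.1 (R 4.3.3) with a mean-variance trend over 15 arrays, and p-values were adjusted by Benjamini-Hochberg over the 176 miRNAs. The limits of the study's methods were kept, while limma replaced its pairwise z-test, which was an alternative. The step was tested on simulated data. The unscaled signal was compared by an exact permutation test over 252 splits. Groups came from the labels.

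Seeds, G and C content and loci came from RefSeq (GRCm38.p6). Array annotation refers to another build, so miRNAs were matched by name. Named were the 10 highest and lowest differences, the 10 brightest, families of 3 or more, clusters with 2 or more meeting the criteria, detection contrasts, those next to the Z ratio limit and the listed markers. Another 7 were named after their values were seen. The members, lists and comparisons were chosen with earlier results of these data known. Other scalings, normexp (offset 50, on the median signal), filters, blocks and left-out arrays were tried. Tables and plots were made in Python 3.11.15 with pandas 2.3.3, numpy 2.4.6, matplotlib 3.10.9 and scipy 1.17.1.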

Additional observations from a re-analysis of the deposited data

Results flagged for a closer look

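Each named miRNA was searched, within the 5 CR and within the 5 Met arrays, for 1 array far from the other 4 (Dixon's criterion at the 95% level). Of 182 such groups, 3 passed, where chance alone would give about 1 in 20. miR-2140_v15.0 read 5.21 on Met 4, against 3.34 to 3.80 on the other Met arrays. miR-92a-3p, of the cluster from Mir17 to Mir92-1, read 0.776 on CR 3, against 0.923 to 0.963 on the other CR arrays. miR-99b-5p read -0.100 on Met 4, against -0.167 to -0.147 on the other Met arrays. None of the 3 miRNAs met the criteria between CR and Met.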

How the results depend on the processing

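With all arrays and z-scores, 37 of 176 miRNAs met the criteria (8 higher and 29 lower in CR). The count was 76 (45 higher, 31 lower) with the 75th percentile of detected probes, 10 (0 and 10) with that of all probes, 16 (2 and 14) with the software's total gene signal, 61 (24 and 37) at an adjusted p of 0.05 without a Z ratio limit, 12 (5 and 7) on slide 2 alone and 18 (3 and 15) without CR 2 and CR 3, an alternative chosen after seeing the data. Of the 37, 26 were among the 76, 6 among the 10, 1 among the 16 and 29 among the 61. The Z ratio limit moved with the spread of differences, which was 0.155 in z-scores. On the log2 scale it was 0.351 with detected probes, 0.813 with all probes and 0.927 with the total gene signal. Without a Z ratio limit, 79, 0 and 77 of the 176, in that order, reached a limma adjusted p of 0.05. The count stayed within 1.5 times of 37 under all other alternatives and was 29 to 42 with 1 array left out. With the total gene signal the median of the 176 differences was 0.25 on the log2 scale. The median unscaled signal differed by -0.10, and by -0.13 to -0.07 with 1 array left out. The log2 of the summed signal differed by -0.32 (exact permutation test, p = 0.00794), the only alternative of that comparison with p of 0.05 or less. The cause of these changes was not tested. Among the 37, miR-130a-3p changed sign with the 75th percentile of detected probes (0.00211), with quantile normalization (0.0249) and with the total gene signal (0.0987), and miR-30a-5p with the total gene signal (0.0525). Over all alternatives, the 37 kept sign and criteria in 864 of 1071 fits and sign alone in 203. The 54 other named miRNAs changed sign without meeting the criteria in 105 of 1551 fits and met them in 70. With the replicate number as a block (replicate block), 37 met the criteria (8 and 29), the same miRNAs. The numbers do not pair the mice, since correlations of same-numbered deviations ran from -0.45 to 0.62 and 1 of 5 CR arrays correlated best with its own number. The number of arrays, and signals near background in the lower tier, limit what can be seen.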

Other observations

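Muscle miRNAs, which were not among the 176, stood out on 1 CR array. On CR 5 the unscaled signal of miR-133a-3p was 407.4, that of miR-1a-3p 265.8 and that of miR-206-3p 128.8. On the other 14 arrays of the 3 groups, miR-133a-3p read 105.5 to 118.0, miR-1a-3p 108.7 to 120.7 and miR-206-3p 106.1 to 119.2. Without CR 5, 42 miRNAs met the criteria between CR and Met in place of 37, and 36 of the 37 were among them.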
